A study of Mus musculus with 2 samples.

Results

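Cytosolic ribosomal protein genes were examined in CD31+CD44+ cells of the mouse embryo during the endothelial-to-hematopoietic transition (EHT), the step at which arterial endothelium of the dorsal aorta gives rise to blood. Members were gene rows whose symbol matched a pattern for small-subunit (Rps), large-subunit (Rpl) or stalk (Rplp) proteins. They also had unique molecular identifiers (UMIs, 1 per captured RNA molecule) in at least 50% of all cells. The pattern does not match the symbols Rpsa and Rpl36al, so these are not among the members. Of 24543 gene rows, 83 matched the symbol pattern and 78 met the limit, 32 of the small and 46 of the large subunit. The detection limit used the UMIs of these cells, so that the members are abundant is not a result.

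The ribosome reads mRNA with its small subunit and joins amino acids with its large subunit, and each subunit is built in the nucleolus from ribosomal RNA and proteins that are needed in near-equal numbers. Messenger RNAs of ribosomal proteins usually begin with a run of pyrimidines, the terminal oligopyrimidine (TOP) motif, through which growth signals set their translation. Losing a copy of one of several of these genes impairs red cell formation in Diamond-Blackfan anaemia, so the set is of standing interest in blood development.

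Cells came from the caudal region of E10.0 embryos on a C57BL/6 background. The cKO group was Vec-Cre;Nupr1 fl/fl, in which Cre under the VE-cadherin (Cdh5) promoter removes Nupr1 from the endothelial stage onwards and thus also from blood cells descended from endothelium, and the control group was littermates of genotype Nupr1 fl/fl or Nupr1 fl/+. Cells of both groups carried different hashtag oligos (deposited as hash.ID WT for control and KO for cKO) and were sequenced together as 1 library in each of 2 replicates, so each genotype was 1 pool of cells per library. The number of embryos in a pool and their sex are not given in the sources used here. P-values measure only the spread among these pools or, where gates are compared with the pool as a block, the spread within them.

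Replicate 1 held 678 cells with 32430285 UMIs and replicate 2 held 1461 cells with 91511039 UMIs, and no barcode occurred in both. The 78 members took 30207046 UMIs, 24.4% of all. Per cell the share ran from 2.22% to 39.6%, with a median of 23.9%. A share below 10% was found in 39 cells, of which 29 were from replicate 1. Those 39 cells had a median of 7719 UMIs and 6.21% mitochondrial UMIs, against 55321 UMIs and 1.40% in the other 2100 cells. Among the members with the most UMIs were Rps2 (2.97% of member UMIs), Rpl13 (2.65%), Rplp0 (2.23%) and Rps27a (2.22%), as UMI counts and not per length. Nearest the limit among the members lay Rps4l (UMIs in 95% of cells), Rpl7l1 (95.5%) and Rpl34 (98.1%). Outside it lay Rpl30 (38.1%), Rpl26 (24.6%) and Rpl39l (3.51%), and the remaining rows below it were Rpl3l (1.68%) and Rpl10l (no UMI). No member lay close to the limit: 72 were detected in over 99% of cells, and 4 of them in every cell. For Rpl30 and Rpl26, which encode core proteins of the large subunit, loss of reads that match near-identical pseudogene copies could not be told apart from low expression.

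Cells were grouped by marker genes, each cell taking the first gate that it passed: C1qa at 2 or more UMIs per 10000 (macrophage gate), Gp9 at 1 or more per 10000 (megakaryocyte), Mpo at 2 or more per 10000 with a UMI of Fcgr3 (myeloid), a UMI each of Ptprc and Myb (progenitor), a UMI each of Gfi1 and Neurl3 (EHT), and Gja5 at 1 or more per 10000 (arterial). The gates held 581, 225, 181, 212, 141 and 461 cells in that order, and 338 cells passed none. More than 1 gate was passed by 423 cells. Among them 61 passed both the Gja5 and the Gfi1/Neurl3 gate, and 100 both the Ptprc/Myb and the Gfi1/Neurl3 gate. The Ptprc/Myb gate was passed together with Mpo/Fcgr3 by 128 cells and with C1qa by 125, and Gja5 together with Gp9 by 5. Doublets of a control and a cKO cell had been removed by the authors through the hashtags, and doublets within a genotype were not called. UMIs were summed per gate, genotype and replicate, which gave 4 sums per gate and 3 for Gp9, since no cKO cell of replicate 1 fell in that gate.

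As mean list sums, marker genes that no gate used were highest in the gate of their name for all lists but 1. Summed arterial markers (Gja4, Hey2, Efnb2, Cdh5 and Cldn5) had a mean of 4287 UMIs per 1000000 (CPM) in Gja5 cells and 1156 in Gfi1/Neurl3 cells. Summed EHT markers (Runx1, Hlf, Mycn, Adgrg1, Kit and Procr) were highest in Gfi1/Neurl3 cells at a mean of 896 CPM. Their range there, 730 to 1014 CPM, overlapped that of Ptprc/Myb cells, 396 to 922 CPM. Hlf had a mean of 87.4 CPM in Ptprc/Myb and 85.4 CPM in Gfi1/Neurl3 cells, while the other listed EHT genes were highest in Gfi1/Neurl3 cells. The myeloid list reached 2930 CPM in Mpo/Fcgr3 cells, the macrophage list 3843 CPM in C1qa cells and the megakaryocyte list 28542 CPM in Gp9 cells. The progenitor list (Cd34, Spi1, Rac2, Coro1a and Spn) had 1877 CPM in Ptprc/Myb cells but 2236 CPM in Mpo/Fcgr3 cells and 2198 CPM in C1qa cells, so the Ptprc/Myb gate is named here by its genes only. Erythroid genes, mostly embryonic globins, ran from 9.97 to 2874 CPM in the 3 Gp9 sums and did not pass 68.6 CPM in any other gate. Mesenchymal genes (Actc1, Tagln, Pdgfra and Col1a1) together ran from 34.6 to 419.7 CPM in the Gfi1/Neurl3 sums and from 51.9 to 203 CPM in the Gja5 sums, with Col1a1 between 0 and 144 CPM in Gfi1/Neurl3 cells and at no more than 1.73 CPM elsewhere. The part of both lists in the results was not tested.

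The deleted gene was checked first. In Gfi1/Neurl3 cells Nupr1 had 2.81 and 4.00 CPM in the cKO sums of replicates 1 and 2, against 44.0 and 33.3 CPM in the control sums. In C1qa cells the values were 0.326 and 2.62 CPM against 33.1 and 45.8 CPM. The cKO sums were below the control sums of their replicate in these and the other gates with both genotypes.

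The ribosomal protein share was lowest in the Gja5 gate and higher in the Gfi1/Neurl3, Ptprc/Myb, Mpo/Fcgr3 and C1qa gates. Gja5 cells had shares of 20.5% and 19.6% in the cKO sums of replicates 1 and 2 and of 19.5% and 19.2% in the control sums (19.7% ± 0.553, SD, n = 4). Gfi1/Neurl3 cells had 26.2% and 27.5% in cKO and 26.9% and 25% in control (26.4% ± 1.08, SD, n = 4). Every Gfi1/Neurl3 sum lay above every Gja5 sum. Ptprc/Myb cells had 27.5% and 27.6% in cKO and 28.5% and 26.8% in control (27.6% ± 0.688, SD, n = 4), and Mpo/Fcgr3 cells had 28.5% and 26.3% in cKO and 28.2% and 26.8% in control (27.5% ± 1.04, SD, n = 4). The ranges of these 3 gates overlapped one another and none reached down to the Gja5 sums. C1qa cells took an intermediate place at 24.0% and 23.4% in cKO and 23.9% in both control sums (23.8% ± 0.283, SD, n = 4). Gp9 cells had 22% in the cKO sum of replicate 2 and 21.3% in the control sum of that replicate, and 19.5% in the control sum of replicate 1, which rested on 6 cells (20.9% ± 1.29, SD, n = 3). The Gp9 range overlapped that of Gja5 cells. Counting error was small beside these differences, with 95% exact (Clopper-Pearson) half-widths of 0.0218 to 0.142 percentage points, which cover counting error only.

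**Figure D1:**
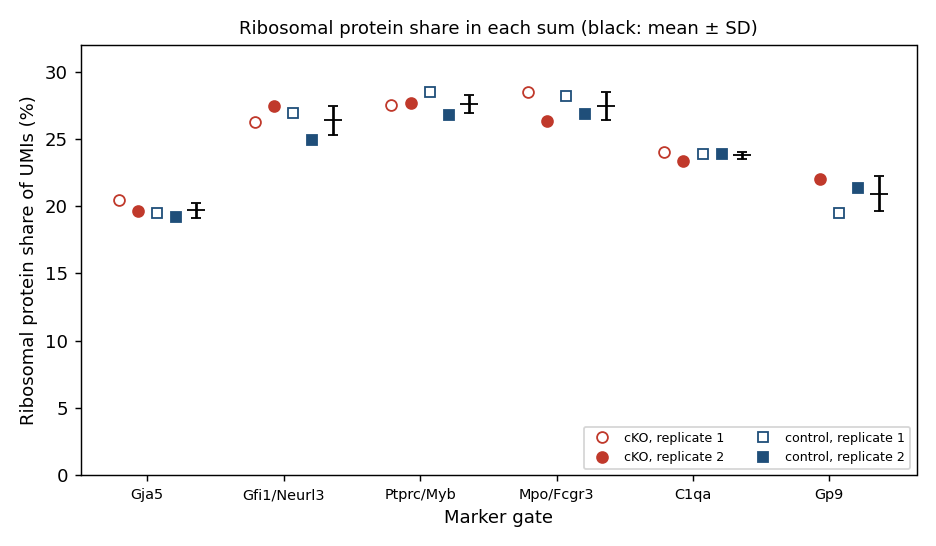
Ribosomal protein share of all UMIs (%, vertical axis from 0) in each sum of cells by marker gate, with circles for cKO, squares for control, open symbols for replicate 1 and filled ones for replicate 2; black bars are the mean ± SD. The 4 Gja5 sums lie between 19.2% and 20.5%, below every sum of the Gfi1/Neurl3, Ptprc/Myb, Mpo/Fcgr3 and C1qa gates.

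Against Gja5 cells the share was higher by 6.70 percentage points in Gfi1/Neurl3 cells, 7.92 in Ptprc/Myb cells, 7.77 in Mpo/Fcgr3 cells and 4.09 in C1qa cells. Each of these had a two-sided exact permutation p of 0.0286, the smallest that 4 sums against 4 can give, and 0.0357 after Benjamini-Hochberg adjustment over the 5 gates. This test did not pair the sums, although both gates came from the same 4 pools. With the pairing, an exact sign flip of the 4 differences within pools gave p = 0.125 for each of these gates, the smallest it can give, so the paired design cannot pass 0.05. In Gp9 cells the difference was 1.253 points (exact permutation p = 0.171, adjusted p = 0.171). Within single pools the differences ran from 5.76 to 7.85, from 7.05 to 9.01, from 6.72 to 8.72 and from 3.52 to 4.69 points in the first 4 gates, and from 0.029 to 2.37 points in Gp9 cells. The gates also differed in depth: the median cell held 24028 UMIs in the Gja5 gate and 45447 to 88887 in the others. At 20000 to 40000 UMIs per cell, the median share was 19.9% in 238 Gja5 cells and 26.7% in 49 Gfi1/Neurl3 cells, and among Gja5 cells of at least 10000 UMIs it stayed between 19.0% and 19.9% in every depth class. Restricted to cells of 30000 to 60000 UMIs, a choice made after seeing the data, the differences were 6.66, 8.72, 9.0, 4.22 and 1.63 points. The Gp9 value used sums of replicate 2 only, and the Mpo/Fcgr3 value left out the cKO sum of replicate 1. A share is relative, so more ribosomal protein mRNA and less of other mRNA cannot be told apart here.

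Single members followed the share, and nearly all of them rose. In edgeR's quasi-likelihood test across 11544 genes with the pool as a block, 75 of the 78 members were higher in Gfi1/Neurl3 than in Gja5 cells and none was lower, where 22% of all genes tested were called higher and 24.7% lower. In Ptprc/Myb cells 77 members were higher and none lower (33.6% and 33.3% of all genes). In Mpo/Fcgr3 cells 76 were higher and none lower (36.7% and 36.9%), and in C1qa cells 75 were higher and none lower (37% and 33.9%). Gp9 cells had 65 members higher and 2 lower (36.5% and 31.7%). After each cell was thinned to 6000 UMIs, 22 were higher and 9 lower, with a member median of 0.09. With genotypes summed, 33 were higher and 2 lower. The shares of all genes called under those settings are not given here. The median log2 fold change of the members was 0.46 in Gfi1/Neurl3, 0.59 in Ptprc/Myb, 0.71 in Mpo/Fcgr3, 0.52 in C1qa and 0.37 in Gp9 cells, beside -0.03, 0.02, 0.01, 0.06 and 0.10 over all genes tested. All 78 members passed the filter on low counts. The CPM of all sums lay above all Gja5 sums, with no overlap, for 52, 67, 71, 58 and 34 members in the order of those gates, where this held for 15.9%, 25.7%, 28.3%, 29% and 25% of all genes. No member lay below all Gja5 sums in any of them, which held for 20%, 26.4%, 31.1%, 29.2% and 29.1% of all genes. Small- and large-subunit members had similar medians, for example 0.43 and 0.48 in Gfi1/Neurl3 cells. In Gp9 cells 22 of 32 small-subunit and 43 of 46 large-subunit members rose, and the small-subunit share of member UMIs was 42.0% to 42.4% there, against 42.8% to 45.1% in the other gates.

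Most members had their lowest and highest level in the same gates in both libraries. Leaving the Gp9 gate aside, Gja5 cells had the lowest mean level of the 5 gates for 75 of 78 members in replicate 1 and for 76 in replicate 2, and Mpo/Fcgr3 cells had the highest for 73 and 68. Ptprc/Myb cells exceeded Gfi1/Neurl3 cells less widely. There 24 members were higher and none lower (12.9% and 13.8% of all genes), with a member median of 0.13 against 0.02 over all genes, and sums of 10 members lay above without overlap (7.14% of all genes) and of none below (8.98%). The number of members called, 24 with all pools, was 11 without the cKO sums of replicate 2 and 2 without the control sums of replicate 2. The shares of all genes called with those pools left out are not given here.

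**Figure D2:**
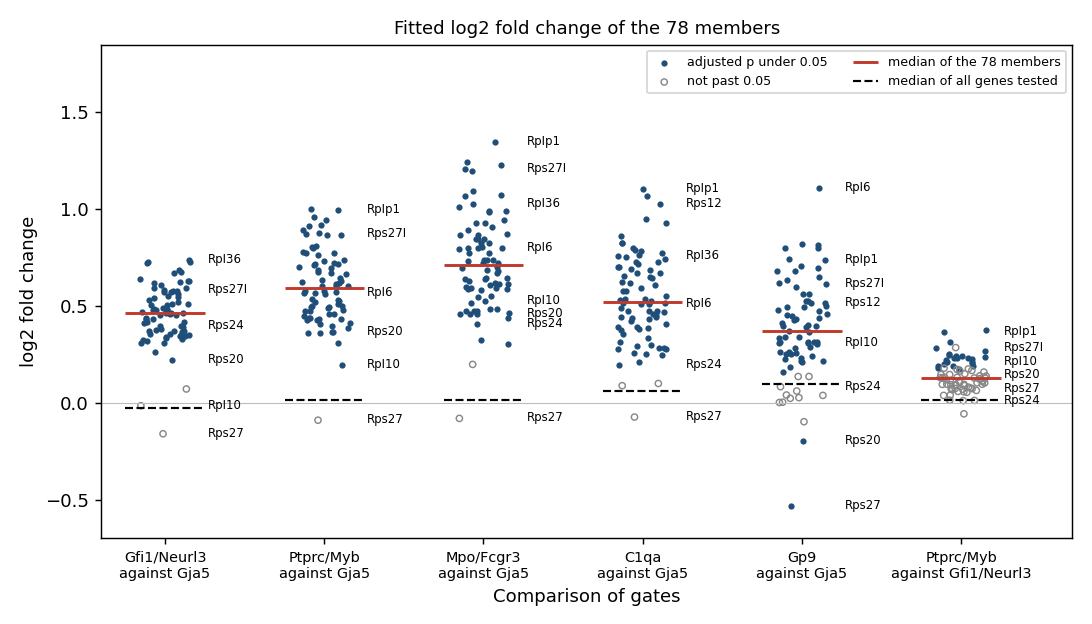
Fitted log2 fold change (vertical axis) of each of the 78 members in the 6 comparisons of gates, with filled points for members past an adjusted p of 0.05, a red line at the member median and a dashed line at the median of all genes tested. Nearly all points lie above the dashed line in the 4 comparisons with the largest medians, while Rps27 lies below 0 in every comparison against Gja5 cells.

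The windows around the start sites of members that stood out are shown next, since the TOP motif of such mRNAs begins there. RefSeq promoter entries (GRCm38.p6) were found for 58 of the 78 members, with 69 start sites. The longest run of C and T letters on the sense strand within 15 bases of either side of the start had a median of 6 bases, against 4 over the 32851 start sites of all genes, and reached 8 or more at 28 member sites, 40.6% against 12% of all. Each line gives the 30 bases on the sense strand, 5′ to 3′, with the longest run in capitals.
Rps27 (chr3:90213634-90213663, minus strand): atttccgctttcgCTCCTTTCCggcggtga
Rps27l (chr9:66946071-66946100, plus strand): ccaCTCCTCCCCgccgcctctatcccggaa
Rpl4 (chr9:64173372-64173401, plus strand): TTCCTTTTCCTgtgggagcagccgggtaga
Rpl22l1 (chr3:28805493-28805522, plus strand): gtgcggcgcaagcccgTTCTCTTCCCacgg
Rps2 (chr17:24720048-24720077, plus strand): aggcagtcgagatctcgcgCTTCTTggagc
Rpl10 (chrX:74270801-74270830, plus strand): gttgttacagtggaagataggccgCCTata
Rps27 and Rps27l, which differed in their changes between gates, both held runs of 9 bases in the windows shown, while a further annotated start of Rps27l (chr9:66946398-66946427) held none longer than 4. The Rpl10 window held none longer than 3. A run is a description of these letters, the annotated start may lie some bases from the one used, and the motif itself was not measured.

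Rps27 had the lowest log2 fold change of all members in each of the 5 comparisons with Gja5 cells. It encodes the small-subunit protein eS27 (GRCm38 chromosome 3, 90212522 to 90213651, minus strand), and its level did not rise with the rest. In Gja5 cells Rps27 had 523 and 358 CPM in the cKO sums of replicates 1 and 2 and 577 and 286 CPM in the control sums. In Mpo/Fcgr3 cells it had 523 and 277 CPM in cKO and 577 and 297 CPM in control, so the 2 gates overlapped while the replicates did not. Its log2 fold changes against Gja5 cells were -0.16 (SE 0.0836, adjusted p = 0.123) in Gfi1/Neurl3, -0.09 in Ptprc/Myb, -0.08 in Mpo/Fcgr3 and -0.07 in C1qa cells, none past the threshold. In Gp9 cells Rps27 had 232 CPM in the cKO sum, 322 in the control sum of replicate 1 and 233 in that of replicate 2, and fell by 0.53 on the log2 scale (SE 0.0941, adjusted p = 2.66e-05). In edgeR's test without the pool as a block this fall was not called (-0.76, adjusted p = 0.0533). Of 16 alternative settings 6, 3, 6 and 6 called Rps27 lower in the other 4 gates in that order. With RLE in place of TMM size factors it was called lower in each of those gates, at -0.22, -0.19, -0.19 and -0.18. Leaving out the cKO sums of replicate 1 also brought the call in Gfi1/Neurl3 (-0.26), Mpo/Fcgr3 (-0.21) and C1qa cells (-0.24), and leaving out the control sums of replicate 1 brought it in Mpo/Fcgr3 cells (-0.20). Rps27 has a near-identical retrogene copy, Rps27rt, listed with no UMI beside 33757 for Rps27 in all sums. Reads that match both copies cannot be told apart, and the level of Rps27 is uncertain for that reason.

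The paralog Rps27l rose in all 5 gates. Rps27l (chromosome 9, 66946086 to 66949516, plus strand) encodes a protein nearly identical to eS27 and is known as a p53-responsive gene. In Gja5 cells Rps27l had 308 and 243 CPM in the cKO sums of replicates 1 and 2 and 293 and 257 CPM in the control sums. In C1qa cells it had 626 and 533 CPM in cKO and 585 and 564 CPM in control, with no overlap and a log2 fold change of 1.07 (SE 0.109, adjusted p = 5.96e-09). The log2 fold change was 0.58 in Gfi1/Neurl3, 0.87 in Ptprc/Myb, 1.21 in Mpo/Fcgr3 and 0.61 in Gp9 cells, past the threshold in each. The ratio of Rps27l to Rps27 UMIs was 0.589 and 0.677 in the cKO sums of replicates 1 and 2 and 0.507 and 0.901 in the control sums of Gja5 cells. In Mpo/Fcgr3 cells the ratio was 1.44 and 2.08 in cKO and 1.05 and 2.07 in control, above every Gja5 sum. Other p53 targets did not move as one: of 9 listed and 7 tested, 3 were lower in each of the 5 gates, and 0, 1, 2, 3 and 3 were higher in Gfi1/Neurl3, Ptprc/Myb, Mpo/Fcgr3, C1qa and Gp9 cells.

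The other paralog rows among the members were Rpl22l1, Rpl7l1 and Rps4l. Rpl22l1 and Rpl22, a pair known for opposed roles in blood development, both rose in Gfi1/Neurl3 cells, by 0.47 and 0.40 on the log2 scale. Their UMI ratio was 0.529 to 0.599 in the Gja5 sums and 0.536 to 0.662 in the Gfi1/Neurl3 sums, which overlapped. In Mpo/Fcgr3 cells it was 0.612 to 0.646, above the Gja5 range. Rpl7l1, whose yeast relative acts in ribosome assembly, rose by 0.73 in Gfi1/Neurl3 cells (adjusted p = 3.52e-07), and its ratio to Rpl7 was 0.0445 to 0.0504 in the Gja5 sums and 0.0539 to 0.0607 in the Gfi1/Neurl3 sums without overlap. Rps4l is annotated as a transcribed processed pseudogene on chromosome 6 (148354656 to 148355598, plus strand), and the other 77 members as protein coding. It rose in Gfi1/Neurl3 (0.62), Ptprc/Myb (0.57) and Gp9 cells (0.70), and was not called in Mpo/Fcgr3 (0.20) or C1qa cells (0.10). Reads of such copies can be shared with their parent genes, and the levels of Rps4l are uncertain for that reason.

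**Figure D3:**
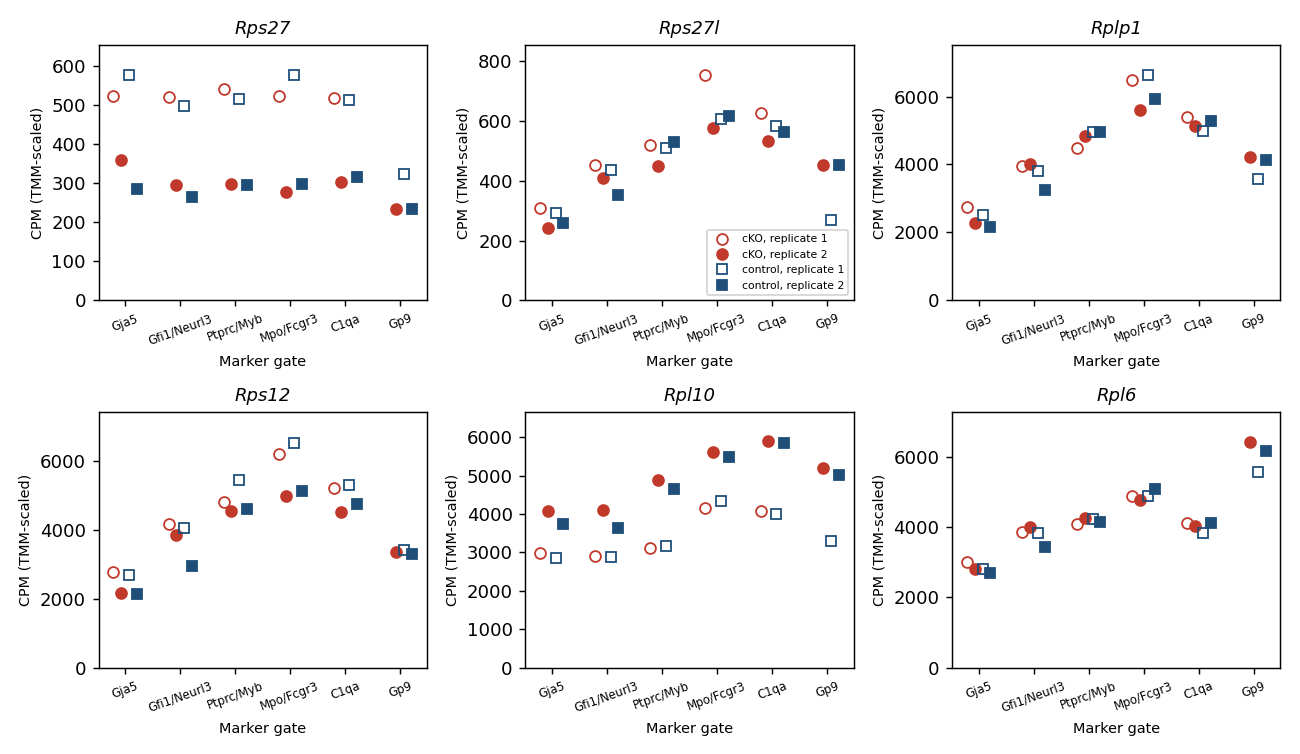
TMM-scaled CPM (vertical axes from 0, 1 scale per gene) of 6 members in each sum by marker gate, with circles for cKO, squares for control, open symbols for replicate 1 and filled ones for replicate 2. Rps27 is higher in replicate 1 than in replicate 2 within every gate and lowest in Gp9 cells, Rps27l, Rplp1 and Rps12 are highest in Mpo/Fcgr3 cells, Rpl10 sums of Gfi1/Neurl3 cells overlap those of Gja5 cells, and Rpl6 is highest in Gp9 cells.

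Rplp1, a protein of the ribosomal stalk, which recruits the elongation factors, was among the members that rose most in Mpo/Fcgr3 cells. Rplp1 had 2750 and 2287 CPM in the cKO and 2499 and 2153 CPM in the control sums of replicates 1 and 2 in Gja5 cells. In Mpo/Fcgr3 cells Rplp1 had 6500 and 5617 CPM in cKO and 6619 and 5922 CPM in control, a log2 fold change of 1.35 (SE 0.0775, adjusted p = 4.74e-13) with no overlap. Rplp1 was also among the 3 farthest above the member median in Ptprc/Myb (0.99) and C1qa cells (1.10), and in Ptprc/Myb against Gfi1/Neurl3 cells (0.36). All 3 stalk members, Rplp0, Rplp1 and Rplp2, rose in each of the 5 gates against Gja5 cells, as most members did. In Gfi1/Neurl3 cells they rose by 0.54 to 0.63, beside the member median of 0.46.

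Rps12, a small-subunit protein, was named in the same comparisons. It had 2781 and 2156 CPM in cKO and 2685 and 2128 CPM in control in Gja5 cells, and 4808 and 4544 CPM in cKO and 5452 and 4615 CPM in control in Ptprc/Myb cells. Its fold change on the log2 scale was 1.00 (SE 0.0715, adjusted p = 3.12e-11), and it was 1.23 in Mpo/Fcgr3 and 1.03 in C1qa cells. In Ptprc/Myb against Gfi1/Neurl3 cells Rps12 was again the farthest above the median, at 0.37 (SE 0.071, adjusted p = 0.00041). In Gfi1/Neurl3 cells the farthest above the member median were Rpl36 (0.74), Rps2 (0.73) and Rpl7l1, as given above. Rps2 had 3951 and 4141 CPM in cKO and 3406 and 4248 CPM in control in Gja5 cells, and 5653 and 7962 CPM in cKO and 5693 and 7059 CPM in control in Gfi1/Neurl3 cells, with no overlap. Others named by the same rule were Rps25 in Ptprc/Myb cells (0.96), Rpl14 in Mpo/Fcgr3 cells (1.24) and Rpl23a in Ptprc/Myb against Gfi1/Neurl3 cells (0.31, adjusted p = 0.00688), whose call was lost without the control sums of replicate 2.

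Farthest below the member median, while still called higher, were Rps20 (0.22), Rps29 (0.26) and Rpl24 (0.31) in Gfi1/Neurl3 cells, Rpl10 (0.20), Rps21 (0.31) and Rps7 (0.36) in Ptprc/Myb cells, and Rps7 (0.30), Rpl34 (0.33) and Rps24 (0.41) in Mpo/Fcgr3 cells. In C1qa cells they were Rps24 (0.19), Rps20 (0.21) and Rpl34 (0.25). Calls this small were less stable: that of Rps24 in C1qa cells was lost without any 1 of the 4 pools, that of Rps20 without the cKO sums of replicate 1 or the control sums of replicate 2, and that of Rpl34 without any pool but the control sums of replicate 1. The call of Rps20 in Gfi1/Neurl3 cells was lost without either cKO pool. Rps7 had 3153 and 4112 CPM in cKO and 2971 and 3890 CPM in control in Gja5 cells and 3715 and 4860 CPM in cKO and 3802 and 5042 CPM in control in Mpo/Fcgr3 cells, where the ranges overlapped but each pool was higher than its own Gja5 sum.

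Rpl10 is the large-subunit protein uL16, which joins late in subunit assembly, and lies on the X chromosome (74270812 to 74273135, plus strand). In Gja5 cells it had 2974 and 4071 CPM in the cKO sums of replicates 1 and 2 and 2866 and 3750 CPM in the control sums. In Gfi1/Neurl3 cells it had 2906 and 4110 CPM in cKO and 2872 and 3636 CPM in control, a log2 difference of -0.015 (SE 0.0561, adjusted p = 0.856). In Ptprc/Myb cells Rpl10 had 3110 and 4891 CPM in cKO and 3166 and 4650 CPM in control and was called higher (0.20, SE 0.0561, adjusted p = 0.00358), a call that had an adjusted p of 0.0530 without the cKO sums of replicate 2. It was higher by 0.52 in Mpo/Fcgr3, 0.53 in C1qa and 0.31 in Gp9 cells. Against Gfi1/Neurl3 cells Ptprc/Myb cells were higher by 0.21 (SE 0.0562, adjusted p = 0.00700). Of the 4 X-linked members (Rps4x, Rpl10, Rpl36a and Rpl39), 3 rose in Gfi1/Neurl3 cells and all 4 in each other gate.

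Gp9 cells had a pattern of their own. Rpl6, a large-subunit protein, had 2692 to 3023 CPM in the 4 Gja5 sums and 6444, 5592 and 6184 CPM in the cKO sum of replicate 2 and the control sums of replicates 1 and 2 in Gp9 cells. Its log2 fold change there was 1.11 (SE 0.0618, adjusted p = 3.07e-13), beside 0.42 to 0.80 in the other 4 gates. Rpl7a (0.82) and Rpl4 (0.82) were next above the median. Below it, besides Rps27, lay Rps20, at 3812 CPM in cKO and 3157 and 3597 CPM in control against 3800 to 4179 CPM in Gja5 cells, which fell by 0.20 (adjusted p = 0.0203), and Rpl23 (0.16, adjusted p = 0.0489), whose call was lost without any 1 pool. The direction of Rps20 turned to 0.061 with marker cutoffs halved. Megakaryocyte transcripts made up a mean of 28542 CPM of these sums and erythroid transcripts up to 2874 CPM, and their part in the result was not tested. RLE size factors moved the median of all genes in this comparison from 0.10 to -0.10 and the member median to 0.21. They gave 51 members higher and 7 lower, and the share of all genes called with them is not given here. In the other gates RLE left the member medians at 0.40 to 0.60.

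Genes that build ribosomes rose beside the proteins they assemble. Of 20 ribosome biogenesis genes, among them the nucleolar factors Ncl, Npm1 and Fbl, 19 were higher in Gfi1/Neurl3, Ptprc/Myb and Mpo/Fcgr3 cells, 18 in C1qa and 20 in Gp9 cells, and none was lower. Their median log2 fold changes were 1.41, 1.70, 1.95, 1.31 and 1.28, above the member medians, a difference that was not tested. Of 77 mitochondrial ribosomal protein genes, 57, 67, 74, 67 and 65 were higher and 2 or 3 lower in those gates, and of 53 initiation factor genes tested, 29, 34, 39, 28 and 35 were higher and 2 to 7 lower. Of all genes tested, 22%, 33.6%, 36.7%, 37% and 36.5% were called higher in those gates. Called lower were 24.7%, 33.3%, 36.9%, 33.9% and 31.7%. Other TOP mRNAs mostly followed the members, with 8 to 11 of 12 higher. Among them Pabpc1, the poly(A)-binding protein, rose by 0.36 to 1.17. Tpt1, a translationally controlled growth-associated protein, fell in each of the 5 gates, by 0.28 in Gfi1/Neurl3 and by 0.58 in Mpo/Fcgr3 cells.

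Myc and Mycn, transcription factors known to drive ribosome biogenesis, had unlike patterns. Mycn was higher by 3.67 in Gfi1/Neurl3 (SE 0.337, adjusted p = 1.42e-07), 3.22 in Ptprc/Myb and 2.55 in Gp9 cells, differed by 0.87 in Mpo/Fcgr3 cells (adjusted p = 0.0587), and was lower in C1qa cells, where it fell by 3.06. Mycn is also one of the EHT markers used to check that gate. Myc was higher by 1.17 in Gfi1/Neurl3, 1.98 in Ptprc/Myb, 2.85 in Mpo/Fcgr3 and 1.63 in C1qa cells, and in Gp9 cells differed by 0.32 (adjusted p = 0.301).

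The replicates differed in which members took the UMIs. Each replicate was 1 library, so this is a description with no test. Of 78 members, 20 were higher in replicate 1 in all 10 pairs of sums of the same gate and genotype (Gp9 left out), 29 were lower in all 10, and 29 were mixed. Median log2 ratios of replicate 1 to replicate 2 were largest for Rps28 (0.89), Rps27 (0.85), Rps29 (0.71) and Rpl38 (0.61), which encode small proteins, and lowest for Rplp0 (-0.54), Rpl7a (-0.53) and Rps4x (-0.51). The first 4 were the members past 1.5-fold in either direction.

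These ratios fell with the coding length of the member. Across the 77 members with a coding sequence Spearman's rho was -0.82 (across genes, which are not independent replicates and share both libraries), and it lay between -0.76 and -0.82 in each of the 10 pairs. The 26 shortest members (138 to 405 coding bases) had a median of 0.33 with 24 above 0, and the 26 longest (582 to 1257 bases) a median of -0.39 with 3 above 0. Over all 8040 genes above 0 in every sum rho was 0.54, of the opposite sign, and over 567 other genes of more than 200 CPM and under 1500 coding bases it was -0.18. Fold changes between gates had rho of -0.03 to 0.24 with coding length. Mitochondrial UMIs made up a median of 2.32% per cKO cell and 2.59% per control cell of replicate 1, beside 1.10% and 1.11% in the other library. Their part in the pattern was not tested.

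**Figure D4:**
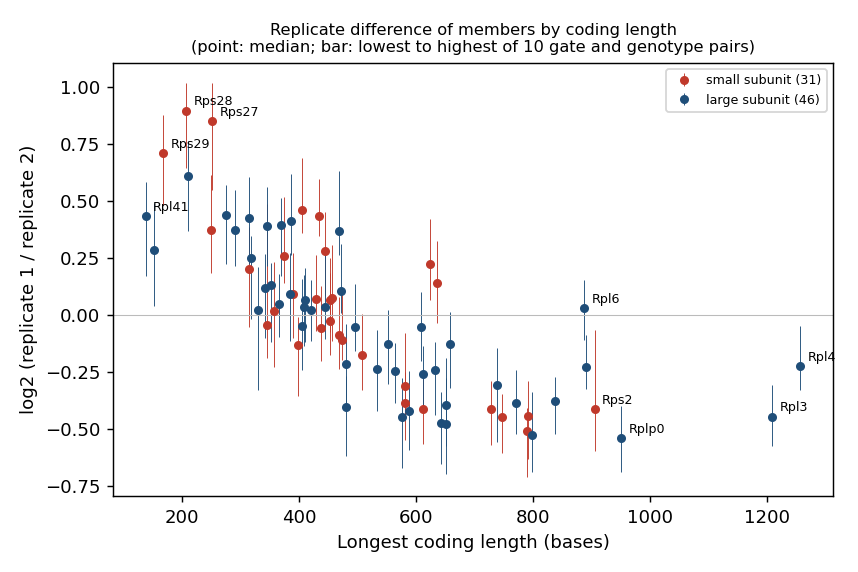
Log2 ratio of replicate 1 to replicate 2 (vertical axis) of each of 77 members against its longest annotated coding length in bases (horizontal axis); points are medians and bars the lowest and highest of 10 pairs of sums of the same gate and genotype. Short members such as Rps28, Rps27 and Rps29 lie above 0 and most members over 582 bases below it.

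Finally, the members were compared between the hashtags. No member was called in cKO against control cells in any gate in edgeR's test without a replicate block, and none had an unadjusted p under 0.05. Of 12423 genes tested, 0% were called higher in each of the 5 gates, and 0% lower except in C1qa cells (0.00805%, 1 gene), while 96 to 411 genes had an unadjusted p under 0.05. With the replicate as a block there was again no call, 2 members had an unadjusted p under 0.05 in Gfi1/Neurl3 cells and none elsewhere, and the lowest adjusted p was 0.870. DESeq2 and the other settings also called no member. The median log2 difference, cKO minus control, was 0.05 in Gja5 cells (72 of 78 members above 0), 0.08 in Gfi1/Neurl3 (77), -0.02 in Ptprc/Myb (26), -0.05 in Mpo/Fcgr3 (10) and -0.01 in C1qa cells (32). The median standard error of a member was 0.23, or 0.086 with the block, so differences of the size of these medians were not detectable. In simulated Gfi1/Neurl3 sums the test found 23.88% of genes changed 2-fold and none of those changed 1.5-fold, and 74.63% and 21.21% with the block. The changed genes were drawn at random from all genes above a low level, not from the members alone. These rates are therefore not those for members.

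Within replicates the sign of the shift was not constant. In Gfi1/Neurl3 cells the ribosomal protein share was 0.659 percentage points lower in cKO in replicate 1, at 26.2% against 26.9%, and 2.51 points higher in replicate 2, at 27.5% against 25%. The member median changed in the same way, from -0.02 to 0.22. In Gja5 cells cKO was higher in both replicates, by 1.01 and 0.426 points, with an exact permutation p of 0.3333, the smallest that 2 sums against 2 can give. When each cell weighed equally (the mean share over cells), the differences in Gja5 cells were -0.340 and 0.742 points. In Ptprc/Myb cells the sums differed by -0.952 and 0.835 points. They differed by 0.290 and -0.482 points in Mpo/Fcgr3 and by 0.131 and -0.519 points in C1qa cells, but the sign in replicate 1 depended on the setting. The mean over cells gave -0.329 and -0.996 points in Mpo/Fcgr3 and -0.349 and -0.474 points in C1qa cells, and doubled marker cutoffs gave -0.128 and -0.739 points and -0.175 and -0.518 points. The genotype difference of no member differed between Gja5 cells and the Gfi1/Neurl3, Ptprc/Myb, Mpo/Fcgr3 or C1qa cells by edgeR's interaction test (0 called of 12423, and 0 members with an unadjusted p under 0.05).

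**Figure D5:**
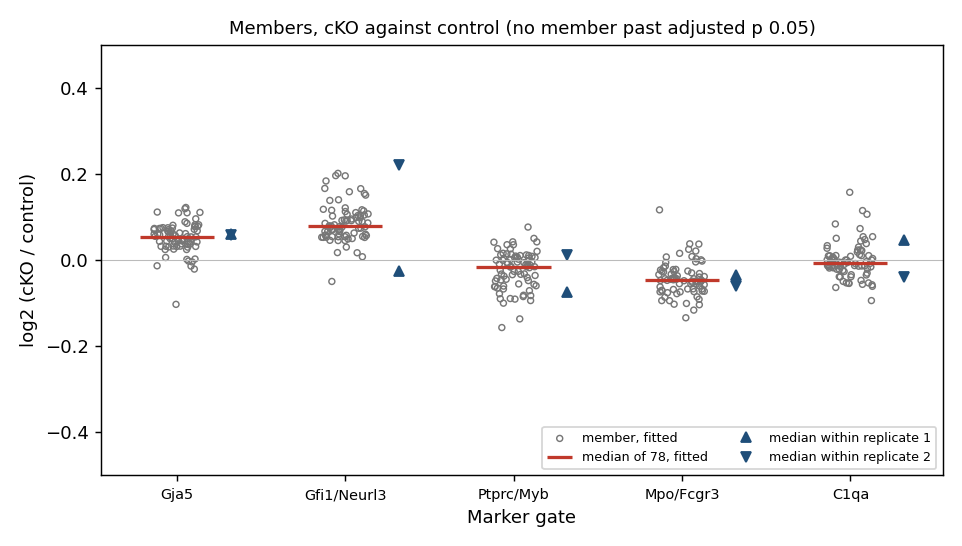
Fitted log2 difference of cKO against control (vertical axis) of the 78 members in 5 marker gates, with a red line at the member median and triangles at the medians within replicate 1 (upward) and replicate 2 (downward). Member medians lie between -0.05 and 0.08, and the replicates lie on opposite sides of 0 in the Gfi1/Neurl3, Ptprc/Myb and C1qa gates.

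Xist, the RNA of the inactive X chromosome and thus a sign of female cells, was at 0.433 to 15.9 CPM in the cKO sums of replicate 1 and at 77.2 to 552 CPM in all others, so the pools differed in their mix of sexes. In Gfi1/Neurl3 cells the X-linked members differed between cKO and control by 0.05 (Rps4x), 0.09 (Rpl10), 0.07 (Rpl36a) and 0.12 (Rpl39), each with an adjusted p of 1. In replicate 2 Xist was also lower in cKO than in control in every gate. It had 79.9 against 211 CPM in Gfi1/Neurl3 cells and 163 against 315 CPM in Gja5 cells. Sex and genotype cannot be told apart in replicate 1, and Xist ran with genotype in replicate 2 as well.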

How the data were processed

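Droplet single-cell RNA-seq (10x Chromium V3) of CD31+CD44+ cells was done in 2 replicates, each 1 library that pooled both genotypes. Reads were aligned and counted by the authors in Cell Ranger 5.0.1 at its default mapping settings, under which a read that matches several genes is generally not counted and strand is used, hashtag singlets were kept (HTODemux, Seurat 4.1.0), and the deposited values are UMI counts without normalization, with a hashtag for each cell. In the submitters' processing notes mm10 is the build. The stated limits of over 1800 genes, over 6000 UMIs and under 5% mitochondrial reads were not met by 101 of 2139 deposited cells, and all were kept. No column of per-sample values was left unused.

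Coordinates and coding lengths (longest annotated coding sequence) are from a GENCODE annotation of GRCm38 matched by symbol, and start sites from RefSeq promoter entries of GRCm38.p6. UMIs were summed per marker gate, genotype and replicate (at least 5 cells). Gates were compared with edgeR 4.0.16 (R 4.3.3): filterByExpr, TMM, robust quasi-likelihood test, Benjamini-Hochberg adjustment over all genes tested, threshold 0.05, 1 fit over all sums with the pool as a block. Genotypes were compared within gates without a block. CPM are TMM-scaled. For shares an exact permutation test, two-sided, was used (scipy 1.17.1). Depth was 32430285 UMIs in replicate 1 and 91511039 in replicate 2.

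The genotypes of a replicate share a library, so replicate numbers pair the sums; across 11544 genes, the deviations of same-numbered sums from the mean of their group had r = 0.234 to 0.576. The edgeR step was tested on simulated sums: of genes changed 2-, 1.5- and 1.25-fold between Gfi1/Neurl3 and Gja5 cells it called 86.57%, 62.69% and 12.12%, with 5 false calls among 11096 genes.

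Named genes are, per comparison of gates, the 3 called members farthest above and the 3 farthest below the member median whose deviation had 1 sign in every pool, with paralog rows, members of most UMIs, those at the detection limit, stalk, X-linked and Diamond-Blackfan members, and any member called for genotype. The Diamond-Blackfan list and 1 of the members of most UMIs are not reported here. The members, gates and gene lists were chosen with earlier results of these data known. Alternatives were DESeq2 1.42.0, RLE size factors, scaling to non-member UMIs, no low-count filter, the block added or removed, genotypes summed, leaving out each pool, marker cutoffs doubled or halved, cells of exactly 1 gate, the stated limits, shares of non-mitochondrial UMIs, as a mean over cells or over all matching rows, and thinning to 6000 UMIs per cell (31 shallower cells left out); a window of 30000 to 60000 UMIs per cell and a sign flip of shares within pools were added after seeing the data. Protein sequences were not used here.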

Additional observations from a re-analysis of the deposited data

How the results depend on the processing

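With 1 pool left out, 3 sums against 3 cannot give an exact permutation p below 0.1, and the share exceeded that of Gja5 cells by 6.32 to 7.02 points in Gfi1/Neurl3, 7.56 to 8.21 in Ptprc/Myb, 7.45 to 8.12 in Mpo/Fcgr3 and 3.89 to 4.27 in C1qa cells. The Mpo/Fcgr3 difference was 7.16 points with cells of exactly 1 gate (p = 0.133 by exact permutation) and 9.0 at 30000 to 60000 UMIs per cell (exact permutation p = 0.0571), with fewer sums in both. The Gp9 difference was 4.97 points with marker cutoffs halved (exact permutation p = 0.0286); the cause was not tested. At 30000 to 60000 UMIs the share of cKO minus control was 1.42 points in Gja5, -2.35 in Mpo/Fcgr3 and -1.08 in Gp9 cells. For Mpo/Fcgr3 cells the only cKO sum was that of replicate 2, with 6 cells. For Gp9 cells only replicate 2 was left, with 14 cKO and 18 control cells. With the replicate block (sign flip within pools) the share differences of 6.70, 7.92, 7.77 and 4.09 points in Gfi1/Neurl3, Ptprc/Myb, Mpo/Fcgr3 and C1qa cells had an exact p of 0.125 each, the smallest 4 pools allow. Members called in Gp9 against Gja5 cells were 67 as reported, 35 with genotypes summed and 31 after thinning. Members called in Ptprc/Myb against Gfi1/Neurl3 cells were 24 as reported, 5 with cutoffs doubled, 2 with genotypes summed, 4 at 30000 to 60000 UMIs, 14 when scaled to non-member UMIs, 10 after thinning and 2 to 21 with 1 pool left out. Without the replicate block this count was 1, and 62, 68, 74, 62 and 46 members were called in Gfi1/Neurl3, Ptprc/Myb, Mpo/Fcgr3, C1qa and Gp9 against Gja5 cells. Adding the block to the genotype comparisons gave 0 in each gate. The share of all genes called under each setting is not given beside these counts of members. A change in the counts is therefore not a result about the members. Directions turned for Rps20 in Gp9 cells (0.061 with cutoffs halved) and Rpl23 in Gp9 cells (-0.014 with cutoffs doubled, -0.12 after thinning); their causes were not tested. Of the other alternative values, 280 of the main results and 451 of single named genes kept direction and side of the threshold, and 74 of named genes lost their call. Depth differs between gates, and with 2 pools per genotype the precision is limited by the pools, not by UMIs.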
